A study of Mus musculus with 66 samples.

Results

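H3K27me3 was compared between CV and ENR organoids over 94466 of the 94469 regions of the union peak set, in 3 libraries of each culture. The regions were all those with a score above 0 in at least 3 of the 9 H3K27me3 libraries. The union set joins the peaks called in the ATAC and ChIPmentation libraries, H3K27me3 included, of all cultures, and no difference between cultures entered the choice. The organoids are cultures of mouse small intestinal epithelium, by the study's methods of the genotype Lgr5 GFPDTR/+, in which 1 Lgr5 allele carries a reporter and a toxin receptor; all cultures share it. ENR organoids grew with EGF, Noggin and R-Spondin and hold stem cells beside differentiated cells. CV organoids received, on top of the ENR factors, CHIR99021 at 3 µM, an inhibitor of GSK3 that activates Wnt signalling, and valproic acid at 1 mM, an inhibitor of histone deacetylases. Every CV library therefore carries both compounds, and their parts in a difference cannot be told apart. EN organoids, grown without R-Spondin, gave 3 further libraries that entered the fit for its estimate of spread and are given here for their level only. Of the 66 samples of the series, 12 are H3K27me3 samples by their labels and 9 had values, so CV replicate 4, ENR replicate 1 and EN replicate 3 were not analysed here. The labels do not say that replicates came from separate animals, so p-values measure the spread between these libraries, which may be technical.

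H3K27me3 is the histone mark written by Polycomb repressive complex 2, whose catalytic subunit is Ezh2 or Ezh1, and removed by the demethylases Kdm6a and Kdm6b. In differentiated tissues it covers CpG-rich promoters of developmental regulators that are silent in that lineage, such as the Hox, Lhx and Gata genes. Polycomb repressive complex 1, with Cbx and Ring subunits, binds the mark. In the intestinal epithelium it is known for keeping genes of other tissues and some lineage regulators off.

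In CV organoids 248 regions had a lower and 34 a higher H3K27me3 score than in ENR organoids (limma with a trend, adjusted p under 0.01), which is 0.263% and 0.036% of all regions tested. Of the 248 falls, 155 had their midpoint within 1 kb of a start site of a protein-coding gene, among them Hoxc6, Hoxc5, Lef1, Wnt10a, Gli1, Nkx6-1, Gata3 and Vim. Of the rises 1 of 34 lay within 1 kb of a start site, against 20.3% of all regions tested. The falling regions had a median CV score of 8.67, a median ENR score of 63.3 and a median EN score of 33.3. In 246 of the 248 the EN mean lay between the CV and the ENR mean, against 28345 of all 94466 regions tested. The choice of regions with low CV and high ENR scores favours this place of EN, so the count is no separate result.

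The 300 bases about the midpoints of 4 regions show the kind of sequence on which the mark differed (mm9, forward strand, CpG dinucleotides in capitals). Hoxc6 is shown for the largest fall, Lef1 and Rbpms as promoters at which the RNA also rose, and Phactr3 for the largest rise.

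Hoxc6, chr15:102829703-102830002: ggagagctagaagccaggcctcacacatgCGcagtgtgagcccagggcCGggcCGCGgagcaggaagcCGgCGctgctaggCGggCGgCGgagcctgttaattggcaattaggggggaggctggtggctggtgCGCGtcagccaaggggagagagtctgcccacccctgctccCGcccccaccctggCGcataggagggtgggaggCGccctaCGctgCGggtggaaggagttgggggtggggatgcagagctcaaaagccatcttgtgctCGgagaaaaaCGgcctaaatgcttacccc

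Lef1, chr3:130813029-130813328: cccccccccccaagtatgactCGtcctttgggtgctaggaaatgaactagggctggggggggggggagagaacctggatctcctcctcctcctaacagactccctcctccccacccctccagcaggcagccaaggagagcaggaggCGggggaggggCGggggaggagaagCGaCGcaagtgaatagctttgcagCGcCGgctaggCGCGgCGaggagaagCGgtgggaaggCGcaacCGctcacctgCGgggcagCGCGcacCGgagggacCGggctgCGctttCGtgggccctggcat

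Rbpms, chr8:35040156-35040455: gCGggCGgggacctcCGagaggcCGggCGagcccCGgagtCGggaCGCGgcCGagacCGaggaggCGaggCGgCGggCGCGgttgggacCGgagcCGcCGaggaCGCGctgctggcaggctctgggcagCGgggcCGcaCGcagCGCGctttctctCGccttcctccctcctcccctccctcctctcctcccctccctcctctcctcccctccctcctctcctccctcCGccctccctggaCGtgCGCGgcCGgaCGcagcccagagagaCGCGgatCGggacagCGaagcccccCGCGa

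Phactr3, chr2:178019843-178020142: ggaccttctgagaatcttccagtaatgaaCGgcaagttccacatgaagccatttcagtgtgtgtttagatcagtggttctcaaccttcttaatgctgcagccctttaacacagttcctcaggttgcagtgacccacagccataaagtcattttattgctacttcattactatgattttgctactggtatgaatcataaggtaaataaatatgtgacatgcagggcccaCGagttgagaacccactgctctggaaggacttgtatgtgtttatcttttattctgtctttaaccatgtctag

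The Hoxc6 stretch held 18 CpG dinucleotides, the Lef1 stretch 20 and the Rbpms stretch 39. The Phactr3 stretch held 2. Over stretches of the same length, the letters CG occurred a median of 20 times in the 248 falling regions, 7 times in 33 rising regions and 4 times over 94340 regions, and 94.0% of these held at least 1 CG.

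The scores are read counts that the authors normalised and rounded, and they have steps. In CV replicate 1, 24317 regions had a score of 2, 1159 a score of 8 and 6215 a score of 10, so low scores rest on few reads. Scores of 3 or less made up 43.0% of the regions in CV replicate 1, 41.0% in ENR replicate 4 and between 11.9% and 30.1% in the other libraries. Scores summed to between 1163281 and 1327017 in CV and between 1010511 and 1076829 in ENR, and the median difference over all regions was 0.32 on the log2 scale, CV being higher. This shift, against which changes can be read, was 0.02 after quantile normalization, 0.07 with median ratios and 0.11 at equal totals. Log2 scores of libraries of the same culture correlated with r between 0.29 and 0.57 over all regions, and those of different cultures between 0.31 and 0.59.

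The largest fall was at chr15:102829675-102830029, an intronic region 1108 bp upstream of the nearest start site of Hoxc6, a homeobox factor of trunk patterning. Its score was 2, 1 and 6 in the CV libraries, 89, 84 and 65 in the ENR libraries and 25, 54 and 45 in the EN libraries. The 3 cultures did not overlap, and the CV minus ENR difference was -4.52 ± 0.62 (SE, log2, adjusted p = 1.98e-08). The CV scores are at the lowest steps of the scale, so the size of this and similar differences depends on the pseudocount of 1.

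Among promoters, the largest fall was at Ntng2, a membrane-anchored netrin of neurons. Its CV scores were 2, 8 and 2 and its ENR scores 75, 74 and 64, a difference of -4.05 ± 0.62. Mapk11, which encodes the p38 beta kinase, followed with 3, 1 and 6 in CV and 51, 59 and 75 in ENR (-4.02 ± 0.65). At Kcnh3, a potassium channel gene of the brain, the CV scores were 3, 10 and 4 and the ENR scores 81, 67 and 112 (-3.83 ± 0.59). All 3 promoters had CV scores of 10 or less in each library and ENR scores above 50.

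The promoter of Rbpms, an RNA-binding protein of muscle and other mesodermal tissues, scored 3, 8 and 2 in CV and 38, 65 and 76 in ENR (-3.61 ± 0.61, chr8:35039479-35041131). The promoter region of Gli1, the transcription factor that reports hedgehog signalling, scored 2, 9 and 6 in CV and 53, 111 and 54 in ENR (-3.54 ± 0.62). Gli1 also had the longest run of falling regions, with 5 regions over 1912 bp. The other promoters among the 10 largest falls were those of Trerf1, Fut2, Mkx, Zbtb10 and Rtbdn, with differences between -3.81 and -3.54. Fut2 is the fucosyltransferase of gut secretions and Mkx a homeobox factor of tendon. At each of the 10 the EN mean lay between the CV and the ENR mean, which the choice of the largest differences favours.

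Away from promoters, the regions with the next largest falls after Hoxc6 lay 1823 bp downstream of a start site of Nr4a3, an orphan nuclear receptor and early response gene, and upstream of Atf3, a stress-response factor. The Nr4a3 region scored 3, 6 and 4 in CV and 56, 72 and 160 in ENR (-4.07 ± 0.60). A pair of regions upstream of Atf3, which overlap in their extended windows and so share reads, each scored 3, 1 and 2 in CV. Their ENR scores were 37, 65 and 43 in the first and 37, 65 and 32 in the second. An intronic region at Lhx5, a LIM homeobox factor of the forebrain, scored 2, 6 and 6 in CV and 59, 87 and 78 in ENR (-3.82 ± 0.62).

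**Figure D1:**
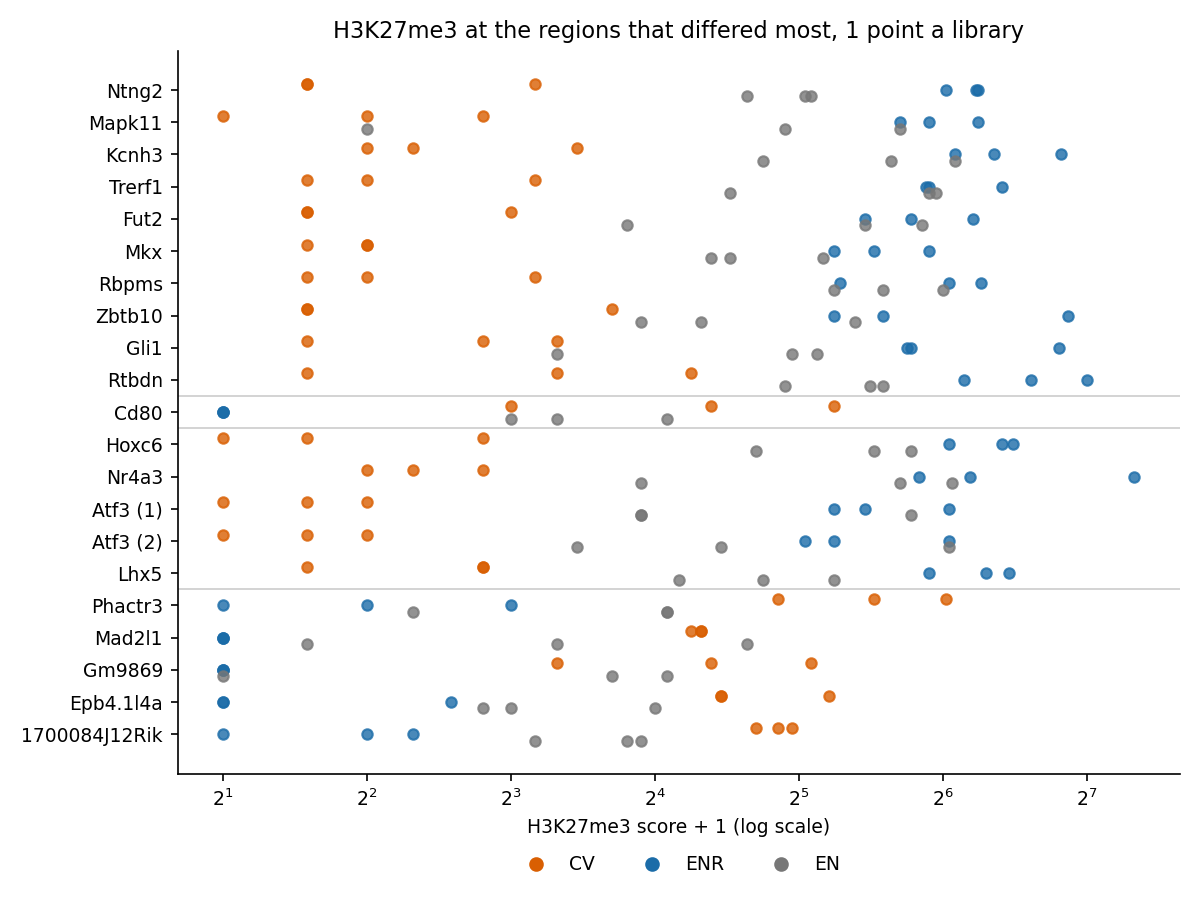
H3K27me3 score plus 1 on a log axis for the regions with the largest differences, 1 point a library, coloured by culture. From the top, the rows are 10 promoter falls, 1 promoter rise, 5 other falls and 5 other rises, named by the nearest start site; in each row the CV points (for example 2, 1 and 6 at Hoxc6) stand clear of the ENR points (89, 84 and 65), with most EN points between them.

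Neighbouring regions were often called together. The 248 falling regions joined into 172 groups when gaps of up to 5 kb between midpoints were bridged, of which 122 held 1 region and 50 held 2 or more. The 1000 bp window of 104 of the 248 overlapped that of another, so these counts are not of independent regions. The 34 rising regions stood alone, in 34 groups.

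The number of falls depended on the fit and on single libraries. Without the trend there were 21 falls and 0 rises (limma, 9261 regions at an unadjusted p under 0.05), and with the replicate number as a block 66 and 2. The number of falls was 124 without CV replicate 1, 164 without CV replicate 3, 65 without ENR replicate 3 and 80 without ENR replicate 4. Other scalings changed the split of falls and rises from 248 and 34 to 151 and 1 (quantile normalization), 483 and 6 (median ratios) or 478 and 7 (equal totals). In each of these fits all 248 regions kept a negative difference. Their choice largely fixed this sign, since in all 248 every CV score lay below every ENR score. Leaving out a library or the trend could therefore not change it.

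The fall followed CpG content at middle levels of the mark, with EN scores from 20 to below 80. To sort regions by a level that neither culture compared had set, the mean score over the EN libraries was used, and CpG-rich was taken as a GC content of at least 50% and an observed-to-expected CpG ratio of at least 0.6 over 1000 bases. Among 2076 CpG-rich regions with an EN score from 20 to below 40, the median CV score was 23.7 and the median ENR score 46.7, and 90 regions (4.34%) were called lower and 0 higher. Among 4551 other regions at the same EN level, the medians were 21 in CV and 23 in ENR, and 66 regions (1.45%) were called lower and 10 higher. With EN scores from 40 to below 80, the medians were 39.3 in CV and 82.3 in ENR over 462 CpG-rich regions, but 107 in CV and 61.7 in ENR over 1359 other regions. With EN scores of 80 and above, the median difference was -0.33 over 30 CpG-rich and 0.49 over 227 other regions. Of 6016 CpG-rich and 46109 other regions with an EN score under 10, none was called lower by limma, and 26 and 276 were lower at an unadjusted p under 0.05. The median differences at that level were 0.38 and 0.37, so CpG content made little difference there. At 10272 CpG-rich promoter regions the median score was 4 to 8 in CV libraries and 5 to 7 in ENR libraries, so CpG-rich promoters as a whole scored low in both cultures.

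**Figure D2:**
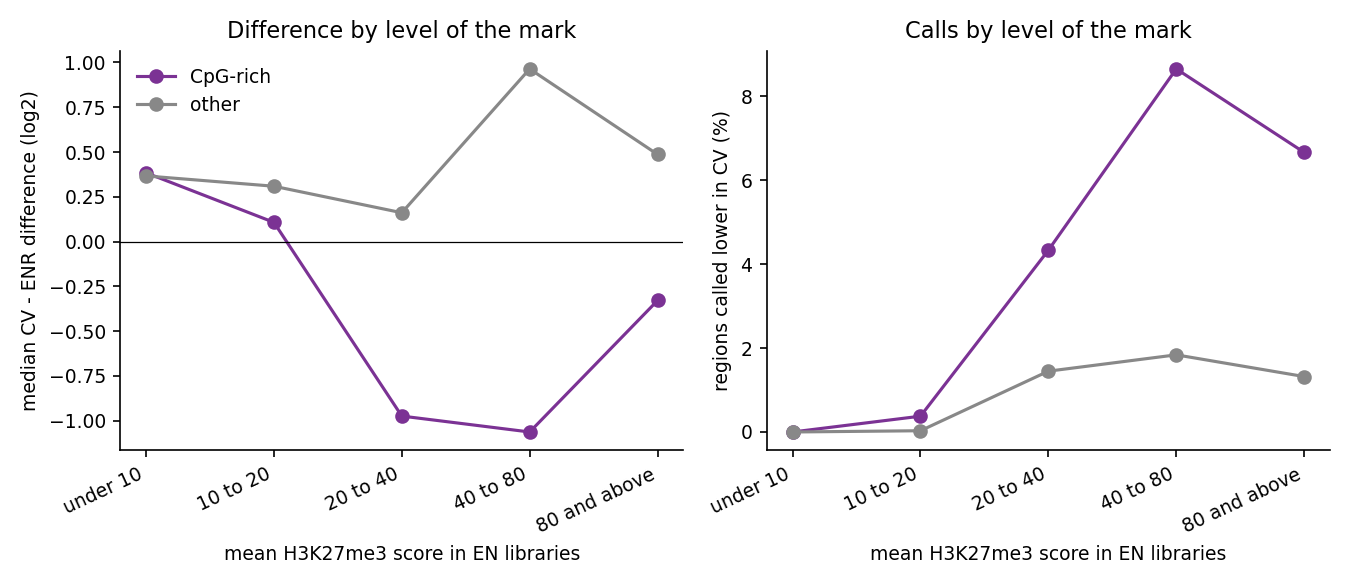
Regions binned by their mean H3K27me3 score in the EN libraries (x axis), split into CpG-rich regions and others. Left, the median CV minus ENR difference in log2 score, which lies at -0.97 and -1.06 for CpG-rich regions with EN scores of 20 to 40 and 40 to 80 but at 0.16 and 0.96 for the others; right, the percentage of regions called lower in CV, highest at 8.66% for CpG-rich regions scoring 40 to 80.

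The falling regions had a median GC content of 60.4% and a median CpG ratio of 0.633, against 47.0% and 0.234 over all regions tested, and 145 of 248 (58.5%) met the CpG-rich definition against 12.7% of all. Of the 155 falls at promoters 109 met it, against 53.5% of all promoter regions. By the annotation, 87 midpoints lay in introns, 80 in exons and 81 between genes. Mean H3K4me3, the mark of active and poised promoters, reached a score of 10 in 96 of the 248 (38.7%), against 15.6% of all regions. Among promoter regions alone the order was the reverse, with 72 of the 155 falls (46.5%) against 60.5% of all promoter regions. None of the 248 lay on the X chromosome, which held 2484 of the regions tested.

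The Hox clusters, which pattern the body axis and are classical Polycomb targets, were lower in CV over their whole length. The mean score over the 28 regions of the Hoxb cluster (chromosome 11) was 22.96, 26.7 and 21.96 in the CV libraries and 58.1, 93.8 and 87.2 in the ENR libraries. Over the 18 regions of the Hoxc cluster (chromosome 15) it was 21.9, 20.6 and 25.3 in CV and 59.8, 79.4 and 68.4 in ENR. No CV library reached the lowest ENR library in either cluster. Over the 26 regions of the Hoxa cluster (chromosome 6) it was 14.0 ± 2.16 in CV and 34.2 ± 8.52 in ENR (SD, n = 3). The Hoxd cluster (chromosome 2, 19 regions) kept the highest CV level, 42.0 ± 3.27, against 82.8 ± 20.4 in ENR.

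These means were 2.41 times as high in ENR as in CV for Hoxa, 3.28 times for Hoxb, 3.06 times for Hoxc and 1.93 times for Hoxd. The exact two-sided permutation test of 3 against 3 libraries gave p = 0.1 for each cluster, the smallest p that this design allows, so none can pass 0.05. Single regions were called lower in 3 of 26 cases in Hoxa, 7 of 28 in Hoxb, 5 of 18 in Hoxc and 0 of 19 in Hoxd, against 0.263% of all regions. At an unadjusted p under 0.05 (limma) 8 of the 19 Hoxd regions were lower. The difference was negative in 20, 27, 18 and 19 of these regions. The regions of a cluster share reads and neighbours and are not replicates. Whether the Hoxd cluster differed from the others was not tested.

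Within the clusters, the called regions were at Hoxa3 and Hoxa7, at Hoxb3, Hoxb4, Hoxb6 and Hoxb9 with 1 near Gm53, and at Hoxc5 and Hoxc6. The called Hoxa3 region lay at chr6:52162816-52162925. Promoter regions at another Hoxa3 start site, chr6:52133410-52133675 and chr6:52133792-52133882, had differences of 0.75 and 0.11 and were not called. Besides the Hoxc6 region above, a Hoxc6 promoter region (chr15:102828505-102829633) scored 11, 2 and 16 in CV and 75, 82 and 88 in ENR (-3.28 ± 0.58). Promoter regions at another Hoxc6 start site, chr15:102840041-102840284 and chr15:102840404-102840562, had differences of -1.43 and -1.03 and were not called. The promoter of Hoxc5 scored 2, 24 and 33 in CV and 109, 125 and 133 in ENR (-3.17 ± 0.54). The Hoxa7 promoter had 2, 24 and 11 in CV and 28, 91 and 79 in ENR (-2.63 ± 0.58). At the called Hoxc6 and Hoxc5 promoter regions the cultures were further apart than at that of Hoxa7. The highest CV and the lowest ENR library at Hoxa7 were only 4 units apart.

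**Figure D3:**
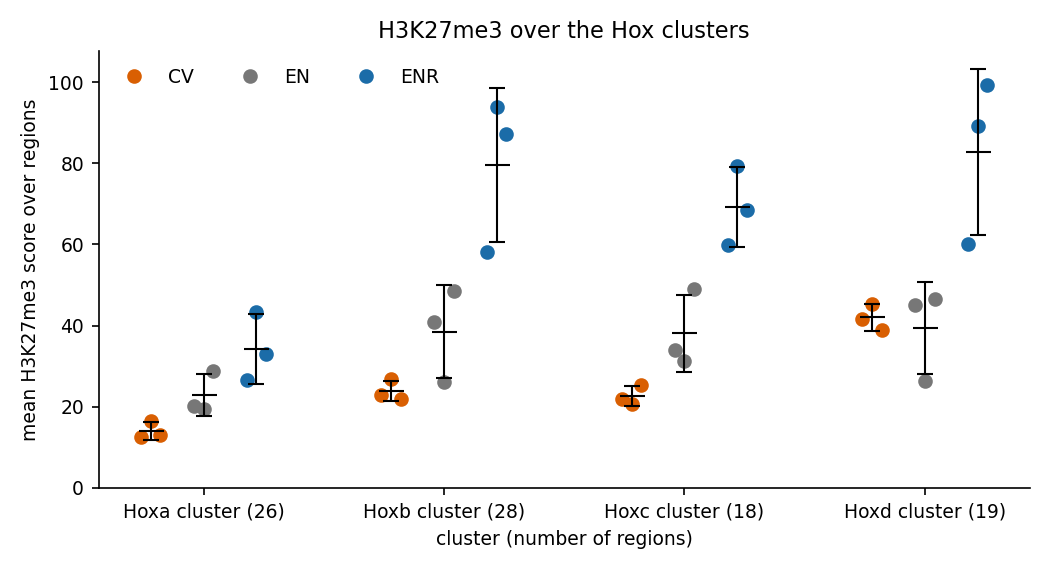
Mean H3K27me3 score over all regions of each Hox cluster, 1 point a library, with the mean and SD of each culture (n = 3) in black and the number of regions in brackets. CV points lie between 12.5 and 45.4 and in each cluster below all ENR points, for example 21.96 to 26.7 against 58.1 to 93.8 for Hoxb. Most EN points lie between the CV and ENR points or beside the CV points. In Hoxa, however, EN replicate 4 (28.8) lies above ENR replicate 2 (26.5), and in Hoxd EN replicate 2 (26.3) lies below all CV points.

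Developmental regulators of other tissues were lower at their promoters as groups of values, but few passed the test singly. Each listed gene was represented by its promoter region with the highest mean score over the 9 libraries. Of 83 homeobox and paired-box factors 56 had such a region, and their median difference was -1.21, against 0.22 over the promoter regions of 13066 genes. The difference was negative for 52 of the 56, the CV and ENR scores did not overlap with CV lower for 34, against 1073 of the strongest promoter regions of 13066 genes (8.21%) and 4.13% of all regions, and 2 were called. At an unadjusted p under 0.05 (limma) 38 of the 56 were lower and 1 higher, against 915 and 561 of the 13066. Of the 54 T-box, Gata, Sox, Fox and bHLH factors with a region, 47 had a negative difference and 2 were called, with a median of -1.06. Over all 13066 genes, 92 (0.704%) were called lower and 1 higher by the same choice of region, and 5144 had a negative difference. Both lists carried more of the mark, with median ENR scores of 67.8 and 73.7 against 5.67 over the 13066 genes. CpG-rich regions at large, with EN scores of 20 to 40 and 40 to 80, had median differences of -0.97 and -1.06. Whether the lists differed from such regions was not tested.

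The called homeobox genes were Nkx6-1, a factor of pancreatic and neural progenitors, and Lhx1, a factor of kidney and head development. Nkx6-1 scored 3, 5 and 6 in CV and 27, 53 and 53 in ENR (-2.97 ± 0.63). Lhx1 scored 6, 16 and 11 in CV and 59, 103 and 54 in ENR (-2.64 ± 0.58). The other called regulators were Gata3, a factor of T cells and kidney, and Hand2, a factor of heart and enteric neurons. Gata3 scored 3, 20 and 14 in CV and 67, 53 and 70 in ENR (-2.56 ± 0.58). This region lies within 1 kb of a Gata3 start site, but its nearest start site is that of 9230102O04Rik. Hand2 was the most variable, with 2, 71 and 33 in CV and 83, 77 and 200 in ENR (-2.50 ± 0.55). Lhx6, Gata2, Tfap2a and Zic2, picked after their values were seen, had a called promoter region other than their strongest one.

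Among Wnt pathway genes, Lef1 and Wnt10a were called at their strongest promoter region. Lef1, a transcription factor that binds beta-catenin and is itself a Wnt target, scored 12, 11 and 11 in CV and 67, 74 and 75 in ENR at its promoter (chr3:130813065-130813291, -2.56 ± 0.58, adjusted p = 0.00449). The 3 libraries of each culture lay close together, but the Lef1 region lost its call under 9 of 20 alternative settings. Wnt10a, a Wnt ligand, scored 11, 21 and 11 in CV and 75, 119 and 161 in ENR (-2.96 ± 0.55). Of 26 Wnt ligands and antagonists with a region 23 had a negative difference and 1 was called, with a median of -0.71. Wnt1, another ligand, which was picked after its values were seen, had a called promoter region other than its strongest one, with 2, 20 and 28 in CV and 63, 76 and 67 in ENR (-2.51 ± 0.57). Of 26 Wnt targets and stem cell markers 14 had a negative difference and 1 was called, with a median of -0.10. By the same choice of region, 5144 of 13066 genes had a negative difference and 92 (0.704%) were called lower, with a median of 0.22. A single call in a list of 26 says little beside that share.

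The stem cell genes that the study follows had low H3K27me3 scores in CV and ENR and in part higher ones in EN. Lgr5, the receptor that marks crypt base stem cells, scored 12, 5 and 19 in CV, 11, 16 and 5 in ENR and 18, 36 and 14 in EN. Ascl2, a stem cell factor, scored 7, 10 and 2 in CV, 12, 23 and 4 in ENR and 16, 27 and 29 in EN. Axin2, Sox9 and Myc had mean scores between 1.67 and 12.3 in CV and ENR. In EN the means were 23.3 at Axin2, 7.33 at Sox9 and 5 at Myc, against a median of 9.33 over all regions. Differences from EN were not tested. The CV and ENR scores overlapped at Lgr5, Ascl2 and Myc, and none of these 5 genes was called (adjusted p between 0.41 and 0.97 by limma). The differences at Lgr5 and Myc changed sign with the scaling or the libraries used.

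Among lineage genes, Pou2f3, the master factor of tuft cells, was called. It scored 3, 11 and 19 in CV and 46, 51 and 72 in ENR (-2.51 ± 0.59). Pou2f3 was the only called gene of 19 secretory lineage factors with a region, whose median was -0.66, and of 4 tuft markers. It lost its call under 10 of 20 alternative settings. Atoh1, the factor that commits cells to the secretory lineage, scored 3, 23 and 11 in CV and 19, 63 and 43 in ENR, overlapping and not called (adjusted p = 0.15). Cdx2, the intestinal homeobox factor, and Hnf4g, an enterocyte nuclear receptor, had mean scores of 12.3 and 7.33 in CV and 6 and 2.67 in ENR and were not called. Of 23 gut endoderm factors with a region 10 had a negative difference and 0 were called by limma, 3 being lower at an unadjusted p under 0.05, with a median of 0.20 against 0.22 over all promoters. Of the 13 enterocyte markers with a region 0 were called and 1 was higher at an unadjusted p under 0.05, and their median was 0.30.

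At Cdkn2a, the senescence locus kept off by Polycomb in many cells, the scores were 25, 17 and 43 in CV and 31, 113 and 76 in ENR. The cultures overlapped and the difference of -1.26 ± 0.55 was not called (adjusted p = 0.36). Fst, which encodes the activin and Bmp antagonist follistatin, was the only called gene among 21 Bmp, Tgfb and hedgehog genes with a region. It scored 3, 14 and 12 in CV and 32, 52 and 115 in ENR (-2.67 ± 0.59). Cbx8, a Polycomb repressive complex 1 subunit, was the only called gene of 30 Polycomb and demethylase genes with a region, scoring 3, 1 and 7 in CV and 24, 44 and 43 in ENR. Over 13066 genes with a promoter region, 0.704% were called lower by the same choice of region. Vim, the intermediate filament of mesenchymal cells, scored 3, 13 and 2 in CV and 61, 79 and 31 in ENR (-3.29 ± 0.61).

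The cultures differed in cell makeup by their RNA. The labels call CV organoids stem cell enriched and EN organoids stem cell depleted. Of 19 transcripts of Wnt targets and stem cell markers, 7 were higher and 8 lower in CV than in ENR. Cd44, a Wnt target, averaged 147 CPM in CV and 36.1 CPM in ENR. Lgr5 averaged 90.1 and 129 CPM and Olfm4, a stem cell marker, 10.9 and 1229 CPM, both lower in CV. The level of a transcript in bulk RNA is not a share of cells. By reporter imaging, the study found Lgr5-positive cells to be the main cell type of CV organoids. It also reports stem cell markers as enriched in CV in protein and mRNA. Of the transcripts tested, 7 of 7 enteroendocrine, 4 of 4 tuft, 6 of 6 goblet and 6 of 7 Paneth cell markers were lower in CV (edgeR quasi-likelihood test, adjusted p under 0.01), against 29.8% of all transcripts. Summed tuft markers lay between 1.35 and 3.37 CPM (counts scaled to the library size) in CV libraries and between 30.7 and 31.9 in ENR libraries. Summed stroma and immune markers were low in both, at 7.47 to 9.41 CPM in CV and 14.6 to 17.3 CPM in ENR. In bulk chromatin, fewer cells of a type that carries the mark and less mark per cell cannot be told apart, and the part of cell makeup in these differences was not tested.

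The 34 rising regions had median scores of 133 in CV, 36 in ENR and 39.3 in EN. Of these, 17 lay between genes and 15 in introns, and none was CpG-rich. The largest rise was at chr2:178019876-178020108, an intronic region whose nearest start site, that of Phactr3, lies 42269 bp away. It scored 64, 28 and 45 in CV and 7, 3 and 1 in ENR (3.47 ± 0.69, adjusted p = 0.000589). A region whose nearest gene is Mad2l1 scored 18, 19 and 19 in CV and 1, 1 and 1 in ENR (3.30 ± 0.77). The region near Cd80, a costimulatory ligand of immune cells, was the only rise at a promoter, with 37, 7 and 20 in CV and 1, 1 and 1 in ENR (3.21 ± 0.77, adjusted p = 0.00988). The smallest difference was at a region near Chl1, where scores ran from 10769 to 30534 in CV and from 6999 to 11763 in ENR.

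The rises depended on nearly every library. The median score over the 34 regions was 170, 102 and 125 in the CV libraries and 62.5, 16 and 19.5 in ENR replicates 2, 3 and 4. Over 5235 regions with a mean score of at least 30, the CV libraries correlated with one another at r = 0.78 to 0.86 and with ENR replicate 2 at 0.61 to 0.68. Their correlations with ENR replicate 3 lay between -0.03 and 0.03 and those with ENR replicate 4 between 0.16 and 0.26. Without ENR replicate 2 the rises numbered 191. They numbered 1 without CV replicate 1, 8 without CV replicate 2, 2 without CV replicate 3, 7 without ENR replicate 3, 5 without ENR replicate 4, 65 without EN replicate 2 and 17 without EN replicate 4, and 1 after quantile normalization. Over the 248 falling regions the medians were 3, 10 and 8 in CV and 49, 74 and 63 in ENR, and without ENR replicate 2 the falls numbered 225.

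The other chromatin libraries were then read at the 248 falls. Their peaks are part of the union set, but their values did not enter the H3K27me3 test. ATAC signal, a measure of open chromatin in 4 libraries a culture, was higher in CV at 60 and lower at 0 of the 248 (limma, adjusted p under 0.01). Over all regions tested, 2.41% were higher and 5.52% lower. The median ATAC difference at the falls was 0.74 on the log2 scale, against -0.07 over all regions. Of the 60 regions, 34 were at promoters, and they had 50 nearest genes.

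H3K27ac, the mark of active promoters and enhancers, was called higher in CV at 12 and lower at 0 of the 248, against 0.0658% and 0.56% of all regions. Its median difference was 1.11 at the falls and 0.33 over all. This count rests on single libraries: it was 3 without CV replicate 3, 2 without CV replicate 4, 1 without CV replicate 5, 3 without ENR replicate 1, 2 without ENR replicate 2 and 1 without ENR replicate 4. Valproic acid inhibits histone deacetylases, and its part in the H3K27ac level of CV organoids cannot be told apart from that of the culture. H3K4me3 gave 0 calls in either direction over 77827 regions (0%) with limma and a trend. At an unadjusted p under 0.05 it was higher in CV at 132 and lower at 1 of the 248, against 15.3% higher of all regions. Without the trend 12 of the 248 were called higher and 0 lower, against 0.477% and 0.0116% of all regions tested.

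The called Hoxc6 promoter region scored 29, 33, 28 and 43 in the CV ATAC libraries and 12, 7, 7 and 11 in the ENR ATAC libraries, a difference of 1.76 (adjusted p = 0.000203 by limma). The Lef1 promoter region had ATAC scores of 19, 17, 11 and 18 in CV and 3, 4, 4 and 4 in ENR (1.84, adjusted p = 0.000266). At both, the cultures did not overlap. The Rbpms promoter rose in ATAC (0.93) and in H3K27ac, where it scored 84, 48 and 59 in CV and 6, 14 and 7 in ENR (2.74, adjusted p = 0.00268 by limma). H3K27ac also rose at Nkx6-1 (41, 44 and 32 in CV and 5, 8 and 2 in ENR), at Mapk11 (48, 48 and 28 against 8, 6 and 4) and at Fst (144, 46 and 115 against 6, 12 and 4). Of the 34 rises 0 were called in H3K27ac by limma, 7 being higher at an unadjusted p under 0.05, and their ATAC was called lower in 1, the region at Cd80.

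**Figure D4:**
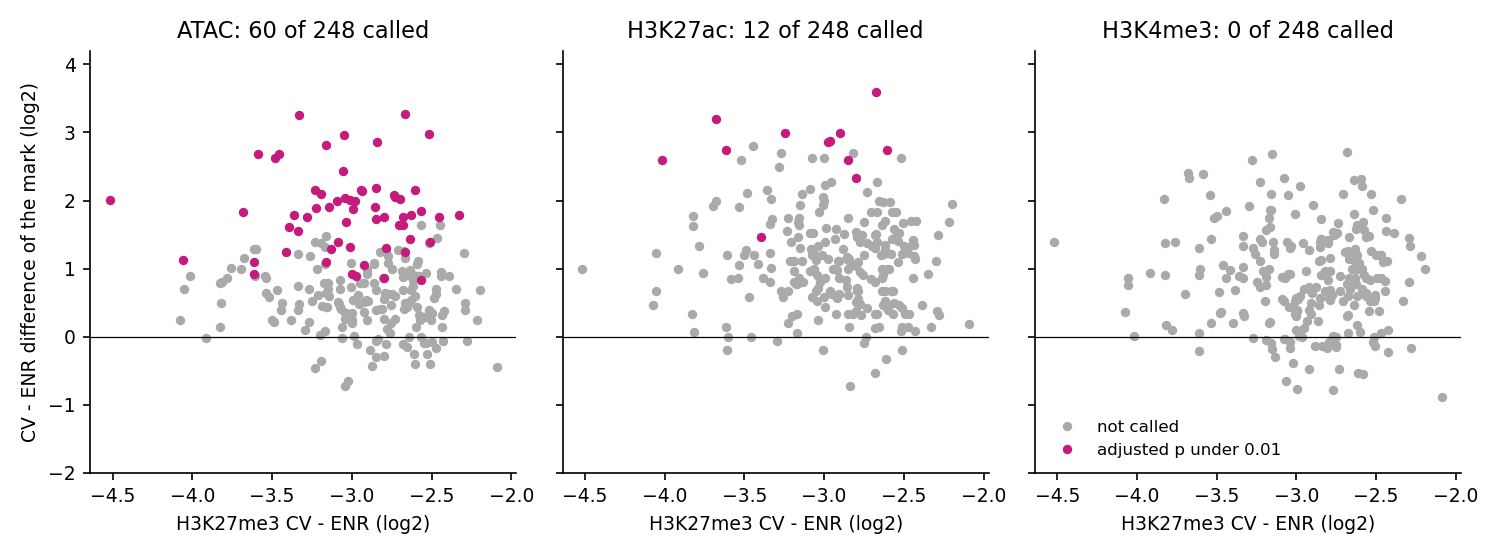
CV minus ENR differences (log2 score) of ATAC, H3K27ac and H3K4me3 against that of H3K27me3 at the 248 regions lower in H3K27me3, 1 point a region, coloured where the other mark passed an adjusted p under 0.01. Coloured points, 60 for ATAC and 12 for H3K27ac, all lie above 0, and H3K4me3 has none.

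RNA was read for the genes with a falling promoter region. Taken by the nearest start site, there were 117 such genes. Of these, 23 had a transcript in the RNA table, against 7888 of all 13066 genes with a promoter region (60.4%). The other 94 have no RNA value here, so the result covers those of the 117 with measured RNA. For the comparison with proteins the study's methods kept transcripts quantified as protein. Where the table follows that rule, a gene silent in ENR can be in it through another culture, and such a gene could only rise. Of 21 transcripts tested, 17 were higher and 1 lower in CV (edgeR quasi-likelihood test, adjusted p under 0.01), against 30.2% and 29.8% of all 9288 transcripts tested. The median difference was 2.74 on the log2 scale, against -0.01 over all transcripts. Of the 21, Fyn, Lef1, Hip1 and Rbpms lacked a count in at least 1 ENR library. Among the 17 with a count in all 4 ENR libraries 13 were higher and 1 lower, against 30.4% and 30.6% of 9015 such transcripts, and the median difference was 1.60.

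Fyn, a Src-family kinase, had 20.1, 21.2, 22.8 and 21.9 CPM in the CV libraries and 0, 0.16, 0 and 0.50 CPM in the ENR libraries. Rbpms had 4.58, 5.47, 4.24 and 3.37 CPM in CV and 0.13, 0, 0 and 0.13 CPM in ENR. Its 135 counts in CV against 2 in ENR give a ratio of 65.1 (95% interval 17.7 to 543, counting error only). Lef1 had 3.10, 2.54, 1.99 and 2.41 CPM in CV and 1 count in a single ENR library, a ratio of 74.2 (95% interval 12.9 to 2969). These 3 genes were near 0 in ENR and present in every CV library.

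Mapk11 rose from 3.73 ± 0.96 CPM in ENR to 25.2 ± 1.61 CPM in CV (SD, n = 4), and Casc4, a gene for a Golgi membrane protein, from 23.8 ± 1.89 to 159 ± 10.2 CPM. Meis2, a homeobox cofactor of Hox proteins, rose from 1.48 ± 0.25 to 10.3 ± 0.60 CPM. Igf2bp3, an RNA-binding protein of fetal tissues, rose from 21.1 ± 2.69 to 50.3 ± 1.44 CPM. The other transcripts called higher were those of Hip1, Evl, Cadm4, Slc43a1, Cwh43, Zfp462, Spats2l, Sema6a, Synpo and Nol4l. Vim was the exception, with 2.96 ± 0.31 CPM in CV and 7.96 ± 0.67 in ENR. Rnf220, Cbx8 and Cemip did not pass the test, with differences of -0.15, 0.14 and 1.60 on the log2 scale.

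**Figure D5:**
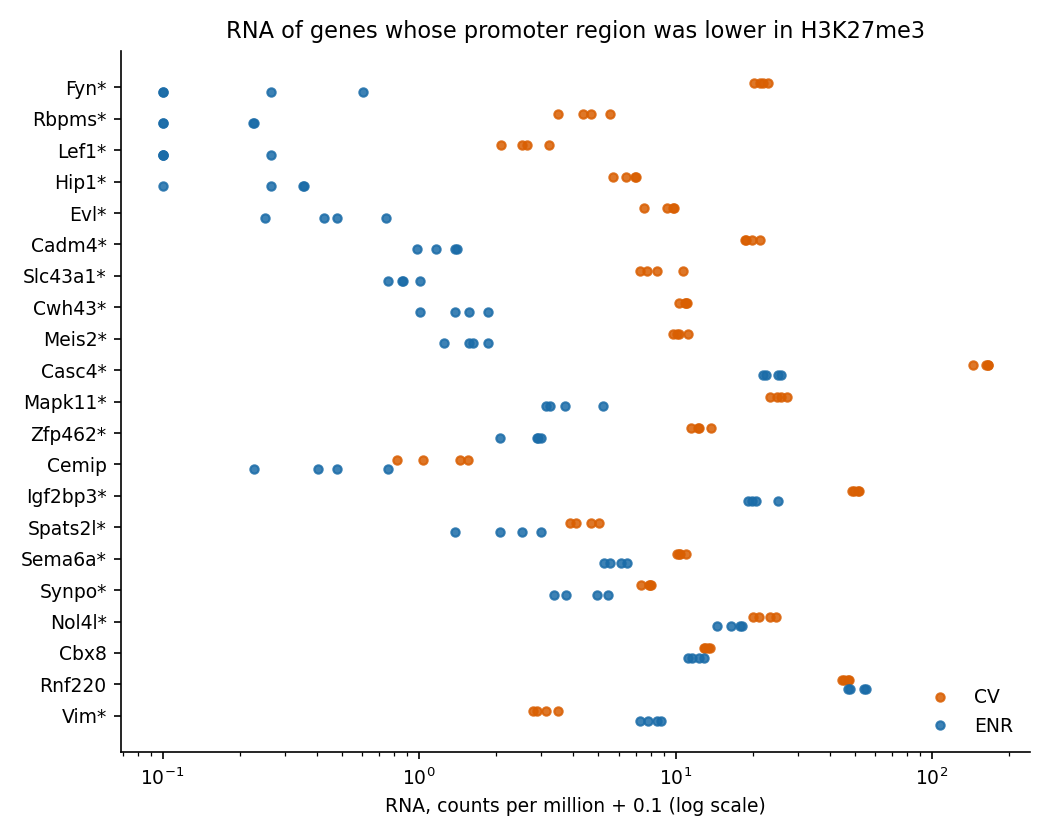
RNA level (CPM plus 0.1, log axis) of the 21 tested transcripts of genes whose promoter was lower in H3K27me3, with 4 CV and 4 ENR libraries a gene and an asterisk for an adjusted p under 0.01. In 17 of them the CV points lie to the right of the ENR points with a call, and in Vim, at the bottom, to the left.

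Genes of the Polycomb machinery moved in both directions. Of 24 transcripts tested, 3 were higher and 8 lower in CV, against 30.2% and 29.8% of all transcripts, with a median difference of -0.04. Ezh2 was lower, with a difference of -0.39 ± 0.07, and so was Ezh1 with -0.37 ± 0.05, while Suz12 and Aebp2, a core and an accessory subunit of complex 2, were higher by 0.28 ± 0.06 and 0.30 ± 0.06. The demethylase transcripts were lower as well, Kdm6a with -0.84 ± 0.05 and Kdm6b with -0.64 ± 0.10. Of the 4 class I deacetylase transcripts, Hdac1, Hdac2 and Hdac3 were higher in CV, by 0.87, 0.18 and 0.54.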

How the data were processed

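H3K27me3, H3K27ac and H3K4me3 were profiled by ChIPmentation, chromatin accessibility by ATAC-seq and RNA by sequencing. Per the study's methods, reads were aligned to mm9 with BWA, duplicates were removed with Picard, and peaks called with MACS2 2.0 were merged, H3K27me3 windows being extended to 1000 bp. The deposited values are a score: read counts that the authors normalised and rounded to whole numbers, by a method not given in the sources used here. For RNA the authors deposited estimated counts and TPM from kallisto (version 0.43.0 by the submitters' processing notes, while the study's methods name a later one). No test on counts was run on the scores.

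Regions above 0 in at least 3 libraries were tested on log2(score + 1) with limma 3.58.1 (trend, R 4.3.3), all 3 cultures in 1 fit, with Benjamini-Hochberg adjusted p under 0.01. Fold changes on this scale understate changes of low scores. RNA counts were rounded and tested with edgeR 4.0.16 (transcripts above 0 in at least 4 of 12 libraries, 5630977 to 8859757 counts a library), CPM being TMM-scaled and SE taken from the F statistic. The SE of a score difference is limma's moderated one. Alternatives included DESeq2 1.42.0, other pseudocounts, filters and scalings, a replicate block and leaving out each library. Scripts were tested on simulated data.

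Start sites came from GENCODE vM1 protein-coding transcripts; no region ran past a chromosome end, and 129 lay on sequences not used here. Of 461 list entries in 21 lists, 6 had no match. The members, lists and the trend were chosen with earlier results of these data known. Regions named are the 10 largest promoter falls and rises and the 5 largest elsewhere without overlap between CV and ENR, up to 4 called genes a list, and 9 genes of the study, with their transcripts.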

Additional observations from a re-analysis of the deposited data

Results flagged for a closer look

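Of 42 groups of 4 RNA libraries checked, 3 held a library far from the others by Dixon's criterion, and chance flags about 1 in 20 groups. Casc4 had 144 CPM in CV replicate 4 and 163 to 166 CPM in the other CV libraries. Zfp462 had 1.97 CPM in ENR replicate 3 and 2.78 to 2.89 CPM in the other ENR libraries. Lef1 had 0.164 CPM in ENR replicate 2, a single count, and 0 in the other ENR libraries. The H3K27me3 groups of 3 libraries were not checked this way.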

How the results depend on the processing

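Of 30 named regions lower in CV, 12 were called under all 20 alternatives, and of 6 named rises 0 were. The counts of 248 falls and 34 rises became 21 and 0 without a trend (9261 regions at an unadjusted p under 0.05), 503 and 196 at an adjusted p under 0.05, 151 and 1 after quantile normalization, 483 and 6 with median ratios and 478 and 7 at equal totals. With a square root scale there were 87 rises, with a mean score of at least 10 there were 13, and with the 6 libraries of CV and ENR alone there were 56. Falls at promoters, 155 in the report, were 9 without a trend, 88, 296 and 297 under the 3 scalings in that order, and the rise at a promoter was 0 in all of these and with a pseudocount of 5, a mean score of at least 10 or the 6 libraries, but 4 within 5 kb of a start site. Listed genes called lower, 15 in the report, were 0 without a trend (limma), 6 after quantile normalization and 24 at equal totals. Leaving out single libraries gave 65 to 351 falls, 1 to 191 rises, 40 to 219 falls and 0 to 4 rises at promoters, and 3 to 19 listed genes. Hox cluster differences became -1.57, -2.01, -1.91 and -1.25 (a to d) with median ratios and -1.87 for Hoxc at equal totals. H3K27ac calls at the falls were 0 without a trend (13473 regions at an unadjusted p under 0.05), 5 after quantile normalization and 1 to 3 without single libraries. H3K4me3 calls were 12 without a trend and 0 to 7 without single libraries. The ATAC and RNA counts stayed within 1.5 times of the main ones in every alternative run. The cause of these changes was not tested.

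With replicate numbers as a block, there were 66 falls and 2 rises, 39 falls and 0 rises at promoters, 4 listed genes and 0 H3K27ac calls (limma, 12693 regions at an unadjusted p under 0.05). The labels give same-numbered CV and ENR libraries no link beyond the number. Their deviations from the culture means correlated at 0.01 for number 2 and 0.02 for number 3. Many scores lie at the lowest steps, so these low correlations do not settle whether the libraries were paired. The difference at Lgr5 turned negative after quantile normalization (-0.19), median ratios (-0.14), equal totals (-0.11), with the block (-0.15) and without CV replicate 3 or ENR replicate 4, the range without single libraries being -0.30 to 0.59. That at Myc turned positive with the block (0.18) and without CV replicate 1, the range being -0.50 to 0.23. Shallow reads per region limit the folds of the lowest scores.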

Other observations

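Fetal-type and Yap-linked epithelial genes with an RNA value had higher RNA in CV, and none of the list's strongest promoter regions was called in H3K27me3. All 6 transcripts tested were higher in CV (edgeR, adjusted p under 0.01), against 30.2% of all transcripts. Anxa1, an annexin of regenerating epithelium, averaged 140 CPM across CV libraries against 6.42 across ENR libraries. For Ly6a, which encodes Sca-1, the averages were 34.4 and 3.72 CPM, and for the cytokine gene Il33 they were 8.36 and 0.20 CPM. At the 9 promoters of this list with a region, H3K27me3 scores had medians of 7 in CV and 9.33 in ENR. The median difference was -0.10, and 0 were called by limma or were below an unadjusted p of 0.05. Over 13066 genes with a promoter region the median was 0.22 and 0.704% were called lower, so 0 calls among 9 say little. The genes with a region and those with RNA are not the same set.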
